A study of Mus musculus with 17 samples.

Results

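The trimethylation of histone H3 at lysine 27 (H3K27me3) was compared between CD8 thymocytes that lack the transcription factors Tcf1 and Lef1 and wild-type CD4 thymocytes. All H3K27me3 islands of the 2 libraries, the intervals called as enriched in each, were taken, and merging those with 1 bp or more in common gave 40785 regions, of 164530 when the islands of all 12 histone libraries of the series are merged. The deficient cells (DKO CD8) had the genotype Tcf1-/-Lef1-/-, with both genes deleted by CD4-Cre, a recombinase under Cd4 regulatory sequences that acts while thymocytes still have to choose between the CD4 and CD8 fates. They were mature thymocytes sorted as TCRbeta high, CD69-negative, CD24-negative and CD8-positive. The wild-type CD4 cells (WT CD4) were mature thymocytes named CD4 in their title and source, although their phenotype label repeats the one of the CD8 cells. Genotype and lineage therefore differ together between these groups and cannot be told apart in this comparison alone. Wild-type CD8 thymocytes (WT CD8), sorted like the deficient ones, gave a further H3K27me3 library, which is set beside the results as a reference. The sources used here do not give strain, age, sex or the number of pooled animals. Genes were not assigned to regions, so the lineage could not be checked against marker genes, and regions are named by their position in the mm9 build.

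H3K27me3 is written by the Polycomb repressive complex 2 and is bound by a further Polycomb complex that compacts chromatin. It marks silent genes, often those of developmental regulators, over stretches that can span whole gene clusters. In T cells it covers, among others, regulators and surface receptors of the lineages a cell has not taken, and a promoter that carries H3K27me3 together with H3K4me3 is commonly called bivalent. On the inactive X chromosome of female cells the mark is spread widely.

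Each group had 1 library, so no difference could be checked against replicates or given a p-value, and intervals are exact Clopper-Pearson intervals at 95% that cover counting error only. The DKO CD8 library had 23933 islands over 96.1 Mb with 3070897 reads in them, and the WT CD4 library had 34013 islands over 142 Mb with 4025243 reads. The median island was similar, at 2600 bp and 52 reads in DKO CD8 and 2800 bp and 55 reads in WT CD4. The reference WT CD8 library had 34756 islands over 121 Mb, with fewer reads per kb of island (21.2, against 32.0 in DKO CD8 and 28.3 in WT CD4). No island in either library held fewer than 15 reads, so weaker enrichment is not visible in these lists.

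A minority of the regions was common to both lists, and these held most of the signal. An island of each library was found in 12747 of the 40785 regions (31.3%, 30.8 to 31.7). A further 19300 regions (47.3%) came from WT CD4 islands alone and 8738 (21.4%) from DKO CD8 islands alone. The shared regions contained 87.8% of the DKO CD8 island reads and 76.0% of the WT CD4 island reads. They were also wider, with a median of 5800 bp, against 1800 bp for DKO CD8 alone and 2200 bp for WT CD4 alone. Regions of a single library were weak: their median was 36 reads in DKO CD8 alone and 42 reads in WT CD4 alone, below the medians of all islands of these libraries.

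Strong islands were found again in the other library, and weak ones often were not. Of the WT CD4 islands with 25 to 50 reads, 17.6% (17.0 to 18.2) overlapped a DKO CD8 island, and this share was 41.3% at 50 to 100 reads, 79.9% at 100 to 200, 98.1% at 200 to 500 and 99.5% at 500 reads or more. In the other direction the shares were 40.4%, 73.6%, 94.8%, 98.8% and 99.7%. Only 3 DKO CD8 islands and 6 WT CD4 islands with 500 reads or more had no counterpart. Width gave the same order, but it is the width of the merged region. Being shared can itself widen a region, and a wide region has more room for an overlap of 1 bp. A part of the following rise is therefore built in. Regions under 2 kb were shared in 5.19% of cases, regions of 5 to 10 kb in 76.8%, regions of 10 to 20 kb in 96.9%, and all 76 regions of 50 kb or more were called in both libraries. The broadest merged regions thus held islands of both lists, which does not show that each library covered them in full. The regions of a single library were nearly all narrow.

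**Figure D1:**
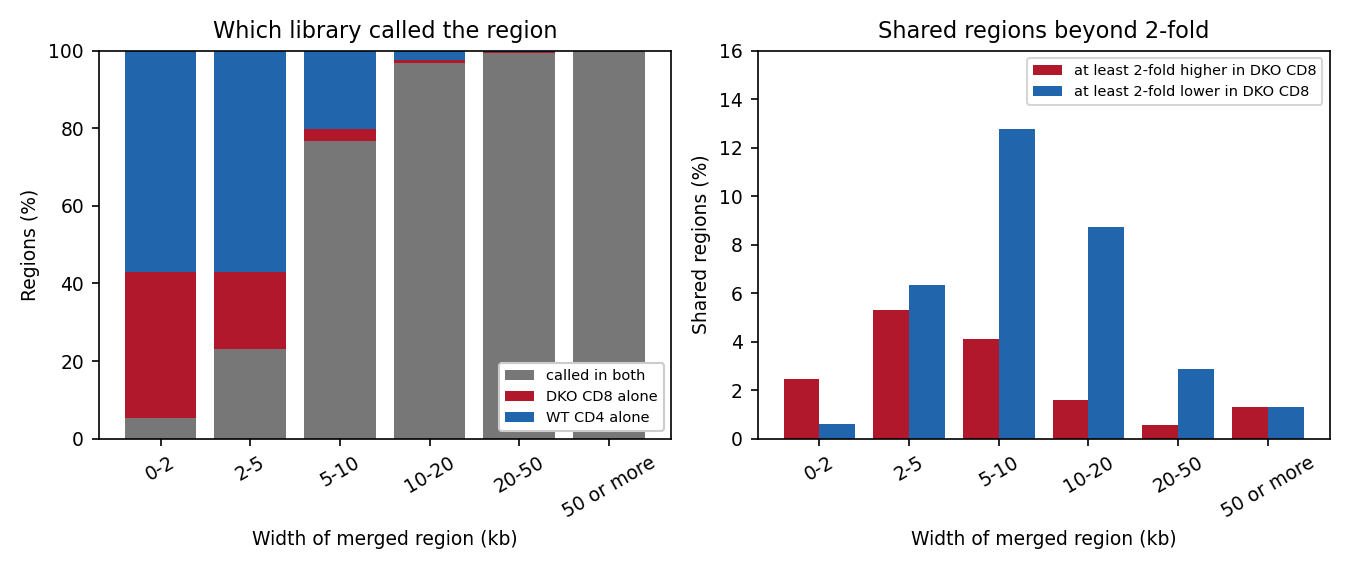
Left, the share of merged H3K27me3 regions (y axis, percent) called in both libraries or in a single one, by region width (x axis, kb); right, the share of shared regions at least 2-fold higher or lower in DKO CD8 after centring on the median ratio. Sharing goes from 5.19% of regions under 2 kb to all 76 regions of 50 kb or more, and regions lower in DKO CD8 are most frequent between 5 and 10 kb (12.8%). Merged width depends on the islands compared, so a part of either pattern is built in.

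WT CD4 islands covered more sequence. Both libraries covered 67.6 Mb in common, 39.7% of the 170 Mb covered by either. This was 70.4% of the DKO CD8 length but 47.6% of the WT CD4 length. Of the 74.4 Mb covered in WT CD4 only, 25.1 Mb lay inside shared regions, where the WT CD4 island reached further, and 49.3 Mb in regions of WT CD4 alone. Of the 28.5 Mb covered in DKO CD8 only, 10.9 Mb lay inside shared regions and 17.6 Mb in regions of DKO CD8 alone. Regions of WT CD4 alone also lay nearer to shared ones: 23.6% (23.0 to 24.2) were within 5 kb of a shared region, whereas for DKO CD8 alone it was 15.1% (14.4 to 15.9). The median distances were 23.4 kb and 63.8 kb. The excess of regions in WT CD4 depended on how much was called. With the WT CD4 list trimmed to the DKO CD8 length by keeping its densest islands, the order turned, with 8652 regions from WT CD4 alone against 11386 from DKO CD8 alone. This kept 20365 WT CD4 islands, against 23933 in the untrimmed DKO CD8 list. Trimming 1 list can only lower its own count and raise the other, so the turn does not show which group has more regions.

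At shared regions the reads of both libraries were compared after centring. Reads in WT CD4 were a median 1.17-fold those in DKO CD8, and log2 ratios of DKO CD8 over WT CD4 are given relative to this median. The middle of the distribution was narrow, with quartiles at -0.41 and 0.30. A difference of at least 2-fold towards DKO CD8 was found at 483 regions (3.79% of those compared) and towards WT CD4 at 1098 (8.61%); these are called the higher and the lower regions. The scale moved this split: with each library scaled to its total island reads, every log2 ratio was 0.17 larger, and 733 regions were higher and 803 lower. By width, the lower regions were most frequent at 5 to 10 kb (12.8% of shared regions), and less so among narrower ones (0.614% under 2 kb, 6.32% at 2 to 5 kb) and wider ones (8.73% at 10 to 20 kb, 2.87% at 20 to 50 kb, 1.32% at 50 kb or more). A part of this order is built in as well. A shared region needs a called island on each side, which limits the ratio where reads are few, and a long island on either side widens the merged region. The interquartile range of the log2 ratio was 0.61 under 2 kb, 0.82 and 0.83 at 2 to 5 and 5 to 10 kb, 0.55 at 10 to 20 kb, 0.32 at 20 to 50 kb and 0.22 at 50 kb or more. The median log2 ratio was 0.22 under 2 kb, -0.05 at 5 to 10 kb and 0.16 at 50 kb or more.

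These differences in reads were mainly differences in the length called, not in the density of reads. At the 483 higher regions the DKO CD8 islands had a median length of 4400 bp and the WT CD4 islands 1800 bp, while the density inside the islands was 22.1 reads per kb in DKO CD8 and 23.9 in WT CD4. At the 1098 lower regions the lengths were 2000 bp in DKO CD8 and 6400 bp in WT CD4, and the densities were 21.4 and 21.6 reads per kb. Judged by density inside a library's own islands, DKO CD8 was higher by 2-fold or more at 166 regions and lower at 84. Island length and density are not independent of calling, since no stretch under the calling threshold is listed. The comparison was then limited to 2720 regions where each library had 1 island and these overlapped by at least 80% of the longer one. Of these matched regions 20 (0.735%) reached 2-fold in favour of DKO CD8 and 0 (0%) in favour of WT CD4, the lowest log2 ratio among those with at least 100 reads being -0.86. The matched regions had a median log2 ratio of 0.17 on this scale, and centred on their own median, a setting added after the values had been seen, 11 were higher and 2 lower. Matching by length leaves out places where a weaker signal shortened an island, so it does not count all differences. Across all 12747 shared regions, density within own islands had a Spearman's rho of 0.73 between the libraries, given as a description across regions of 1 library each.

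**Figure D2:**
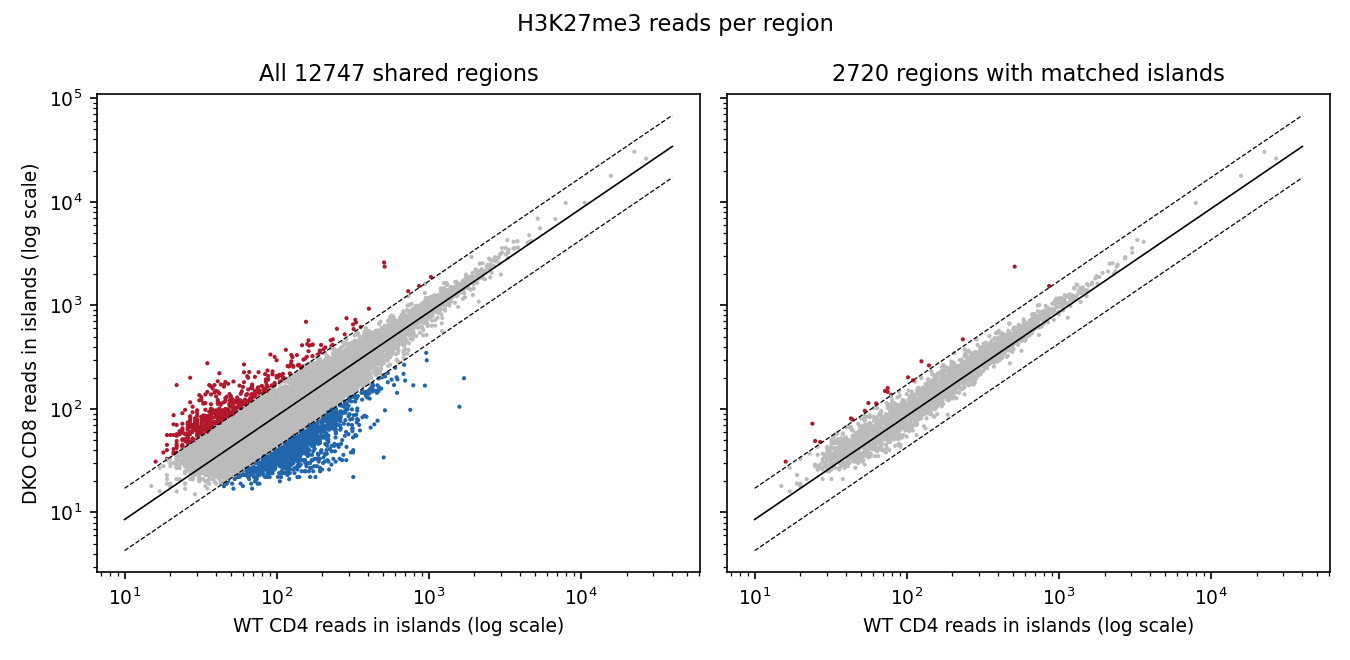
Reads in WT CD4 islands (x axis) and DKO CD8 islands (y axis) per shared H3K27me3 region, both on log scales; the solid line is the median ratio, dashed lines are 2-fold above and below it, red points are the regions higher and blue points those lower in DKO CD8 by 2-fold or more. All 12747 shared regions are on the left and the 2720 with matched islands on the right, where 20 points are above the upper line and 0 below the lower one.

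One matched region stood apart from the others, and matched regions were ranked after the values had been seen. At chromosome 6, 124829601 to 124839000, the DKO CD8 island held 2366 reads over 9.2 kb and the WT CD4 island 513 reads over 9.4 kb, a log2 ratio of 2.43 (2.29 to 2.57). The densities were 257 reads per kb in DKO CD8 but 54.6 in WT CD4 and 62.1 in WT CD8, whose island of 1031 reads was longer, at 16.6 kb. They are raw island reads per kb. The input libraries of the series were not used, so these values are not corrected for DNA copy number. The DKO CD8 cells carry CD4-Cre, which holds Cd4 regulatory sequences. Genes were not assigned, so a part of such added copies in the reads of this region was not tested. Relative to the median island of its own library the DKO CD8 island was 11.1-fold as dense, the WT CD4 island 2.52-fold and the WT CD8 island 3.22-fold. H3K27ac and H3K9ac islands of DKO CD8 and H3K4me3, H3K27ac and H3K9ac islands of WT CD4 overlapped the same region. The second matched region, chromosome 5, 118474401 to 118479600, had 288 reads in DKO CD8 and 125 in WT CD4 over 5.2 and 4.2 kb (log2 ratio 1.43, 1.12 to 1.74), and the next had log2 ratios of 1.31, 1.27 and 1.25.

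The 5 highest ratios among all shared regions, limited to those where the higher library had 100 reads or more, included 1 broad domain. At chromosome 3, 89150201 to 89210200, DKO CD8 had 1 island of 59.4 kb with 2594 reads, whereas WT CD4 had 5 separate islands that added up to 21.4 kb with 509 reads (log2 ratio 2.57, 2.44 to 2.71). The density was 43.7 reads per kb in DKO CD8 and 23.8 in WT CD4. WT CD8 islands covered 46.6 kb of this place with 732 reads, or 15.7 reads per kb, a low density for that library (26.3% of its islands were below it). The region overlapped islands of 11 of the 12 histone libraries, among them H3K4me3 and H3K27ac of both DKO CD8 and WT CD4. The other 4 were narrower, and each rested on a short WT CD4 island. At chromosome 12, 114112001 to 114117400, DKO CD8 had 276 reads over 5.4 kb and WT CD4 35 over 1.2 kb (3.20, 2.69 to 3.75), with H3K27ac islands of both groups and a Tcf1 peak. At chromosome 2, 153267201 to 153273000, the reads were 170 over 5.8 kb and 22 over 0.6 kb (3.17), and at chromosome 6, 94706401 to 94714400, they were 200 over 8.0 kb and 27 over 1.0 kb (3.11). At chromosome 7, 91066601 to 91078600, they were 221 over 12 kb and 42 over 1.6 kb (2.62). The lists do not give the reads between islands, so at these 4 places the interval of the ratio does not bound the difference.

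At the low end the first region differed in density as well as in length. At chromosome 4, 118213601 to 118223000, WT CD4 had 1592 reads over 8.6 kb (185 per kb) and DKO CD8 had 105 reads over 4.2 kb (25 per kb), a log2 ratio of -3.70 (-4.00 to -3.41). WT CD8 had 34 reads over 2.0 kb there (17.0 per kb), so the high density was seen in the WT CD4 library only among these 3. In WT CD4, 99.8% of islands were less dense. This region also overlapped H3K4me3, H3K27ac and H3K9ac islands of WT CD4 and an H3K27ac island of DKO CD8. Ranked next were 4 long WT CD4 islands with a short DKO CD8 one. They lay at chromosome 4, 46607201 to 46618000 (506 reads in WT CD4 and 34 in DKO CD8, -3.67), chromosome 17, 46999001 to 47007000 (319 and 22, -3.63), chromosome 9, 14442001 to 14455400 (287 and 32, -2.94), and chromosome 17, 13362801 to 13426800. The last was a 64.0 kb WT CD4 island with 1709 reads of which DKO CD8 covered 7.6 kb with 198 reads (-2.89, -3.10 to -2.67), at nearly equal density (26.7 and 26.1 reads per kb), and WT CD8 covered 22.2 kb.

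The broadest domains had close to equal signal in both libraries. Of the 76 regions of 50 kb or more, 74 were within 2-fold of the median, with log2 ratios from -0.47 to 0.84; the 2 exceptions are the domains on chromosome 3 (89150201 to 89210200) and chromosome 17 (13362801 to 13426800). A WT CD8 island was present in all 76, H3K4me3 islands of WT CD4 overlapped 65 and those of DKO CD8 overlapped 48. Of all 12747 shared regions, 58.5% had a WT CD8 island. H3K4me3 islands of WT CD4 overlapped 3444 of them and those of DKO CD8 overlapped 1547. A wide region has more room for an overlap of 1 bp, and the part of width in these counts was not tested. The H3K4me3 lists differ in size, so 65 and 48 are not compared between groups. Of the 76, 60 lay above the median of all shared regions. The 76 regions held 8.35% of all island reads in DKO CD8 and 6.43% in WT CD4, where regions of a single library took a larger part of all reads (24.0% against 12.2%). The widest region was chromosome 11, 95974201 to 96187800, where 4 DKO CD8 islands covered 209 of 213.6 kb with 9800 reads and 3 WT CD4 islands covered 211.8 kb with 10609 reads (log2 ratio 0.11). Next to each other on chromosome 15 lay 102733601 to 102859800 (6801 and 6817 reads, 0.22) and 102860601 to 102981200 (4194 and 4738 reads, 0.05). The domain at chromosome 7, 86601601 to 86721400, had 4753 and 4578 reads (0.28). At chromosome 8, 126058201 to 126188400, the densities of 243 reads per kb in DKO CD8 and 173 in WT CD4 were far above those of the other 4 (35.8 to 54.9), and the WT CD8 density of 120 was high as well. This place and the other 4 each overlapped islands of 10 or 11 of the 12 histone libraries. Without such places the widest were chromosome 3, 96121201 to 96216200 (5537 and 5391 reads), and chromosome 11, 61357401 to 61451400 (4168 and 3834 reads).

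Ranked by density within own islands, again after the values had been seen, the chromosome 6 and chromosome 4 regions (124829601 to 124839000 and 118213601 to 118223000) came first at either end. The next in favour of DKO CD8 was chromosome 1, 60621601 to 60624400, with 58.6 reads per kb against 20.5 in WT CD4 (164 and 45 reads), where H3K27ac islands of both groups and of WT CD8 also lay. Chromosome 4, 100984201 to 100988000, had 147 and 61.6 reads per kb (470 and 234 reads), and chromosome 11, 98899601 to 98908200, had 53.4 and 23.8 (459 and 162 reads). Density and read number could part: at chromosome 3, 8241401 to 8246800, the libraries had nearly equal reads, 905 in DKO CD8 over 2.2 kb and 911 in WT CD4 over 5.4 kb. In favour of WT CD4, chromosome 18, 36355201 to 36359200, had 60.9 reads per kb in WT CD4 (207 reads) against 26.2 in DKO CD8 (68 reads). At chromosome 7, 127243401 to 127249400, the densities of 28.7 and 67.3 came with 172 and 175 reads, so the signal was as large but spread over 6.0 kb in DKO CD8 and 2.6 kb in WT CD4.

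**Figure D3:**
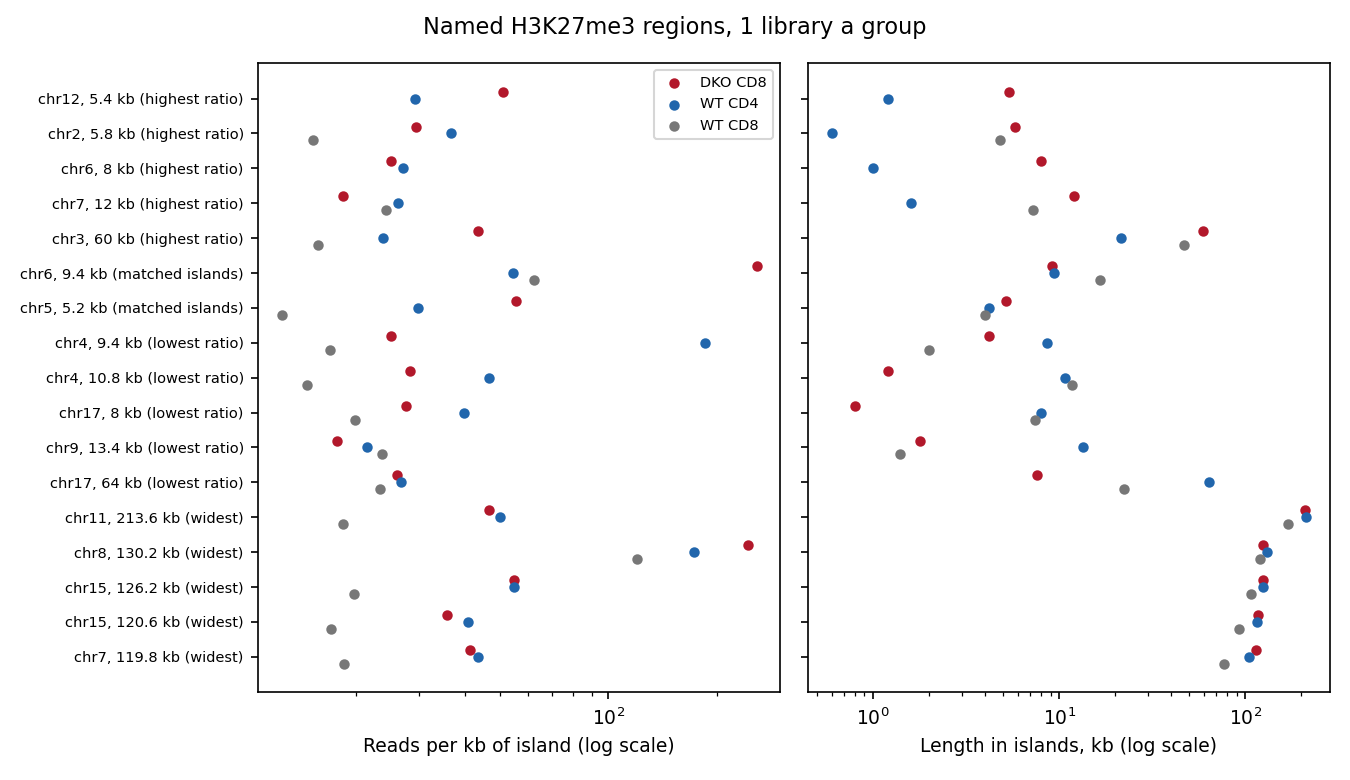
Reads per kb of island (left, log scale) and length in islands in kb (right, log scale) at named H3K27me3 regions, each labelled by chromosome and merged width, in DKO CD8, WT CD4 and WT CD8, with 1 library a group and no point where a library has no island. Regions of the highest and lowest ratio mostly differ in length, while the 9.4 kb region on chromosome 6 (257 against 54.6 reads per kb) and the 9.4 kb region on chromosome 4 (25 against 185) differ in density.

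The regions of a single library with the most reads were few. In DKO CD8 alone the first was chromosome 10, 7229001 to 7237200, with 7668 reads at 935 per kb; WT CD8 also had an island there, with 5103 reads. It was followed by chromosome 17, 3004601 to 3034200 (1733 reads over 29.6 kb), with no WT CD8 island, and chromosome 1, 85227401 to 85263000 (1292 reads over 35.6 kb), where WT CD8 had 1622 reads over 54.2 kb. The next lay near each other on chromosome 4, at 149231001 to 149245600 (476 reads) and 149280401 to 149297000 (445 reads), both overlapping H3K4me3 and H3K27ac islands of DKO CD8 and of WT CD4. In WT CD4 alone, 3 of the first 5 lay within one stretch of chromosome 1, at 90168001 to 90189200 (1027 reads), 90190401 to 90208400 (907 reads) and 90105601 to 90118000 (602 reads), with no WT CD8 island at any of them. The others were chromosome 17, 13571401 to 13604200 (889 reads over 32.8 kb, with 577 WT CD8 reads), and chromosome 8, 19702001 to 19714800 (721 reads). Places with high signal in many libraries were not filtered from these lists. Of the 10 regions, 1 overlapped islands of 10 or more of the 12 histone libraries, the region at 90168001 on chromosome 1. This count does not take density into account. The chromosome 10 region overlapped islands of 6 libraries, yet it was 40.3-fold as dense as the median island in DKO CD8 and 33.1-fold in WT CD8.

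Chromosome X went against the other chromosomes. On each of the 19 autosomes DKO CD8 islands covered less sequence than WT CD4 islands, with ratios of 0.612 to 0.721, whereas on chromosome X they covered 2.19 Mb against 1.58 Mb, a ratio of 1.38. Chromosome X had 230 shared regions, 306 of WT CD4 alone and 611 of DKO CD8 alone, so that 20.1% of its regions were shared, against 27.9% to 37.1% on the autosomes. The median log2 ratio of its shared regions was 0.39, against -0.07 to 0.06 on the autosomes, and 179 of the 230 lay above the median of all shared regions. At least 2-fold higher in DKO CD8 were 30 of them (13.0%) and lower were 4 (1.74%). At the 70 regions of chromosome X with matched islands the median log2 ratio was 0.36, against 0.16 at 2650 such autosomal regions. The regions of DKO CD8 alone on chromosome X were narrow and weak (median 1600 bp and 34 reads), like those on the autosomes (1800 bp and 36 reads). WT CD8 islands covered 6.81 Mb of chromosome X, more than either library. On chromosome Y there were 1 island in DKO CD8, 2 in WT CD4 and 30 in WT CD8. The sex of the mice is not given in the sources used here, and its part in the values on chromosome X was not tested.

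In windows of 1 Mb the same pattern was seen. DKO CD8 covered more than WT CD4 in 116 of 158 windows of chromosome X (73.4%) and in 605 of 2383 autosomal windows (25.4%). The largest excess in DKO CD8 was at chromosome X, 100000001 to 101000000, with 112 kb against 61.6 kb in WT CD4 and 30.8 kb in WT CD8, where 23 regions were of DKO CD8 alone, 5 of WT CD4 alone and 15 shared. It was followed by chromosome X, 11000001 to 12000000 (91.6 and 59.6 kb), and chromosome 1, 85000001 to 86000000 (45.8 and 15 kb). The largest excess in WT CD4 was at chromosome 9, 42000001 to 43000000, with 426 kb against 195 kb in DKO CD8 and 167 kb in WT CD8. There 41 regions were of WT CD4 alone, 7 of DKO CD8 alone and 29 shared. Chromosome 15, 77000001 to 78000000 (313 and 149 kb), and chromosome 3, 107000001 to 108000000 (317 and 162 kb), came next.

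**Figure D4:**
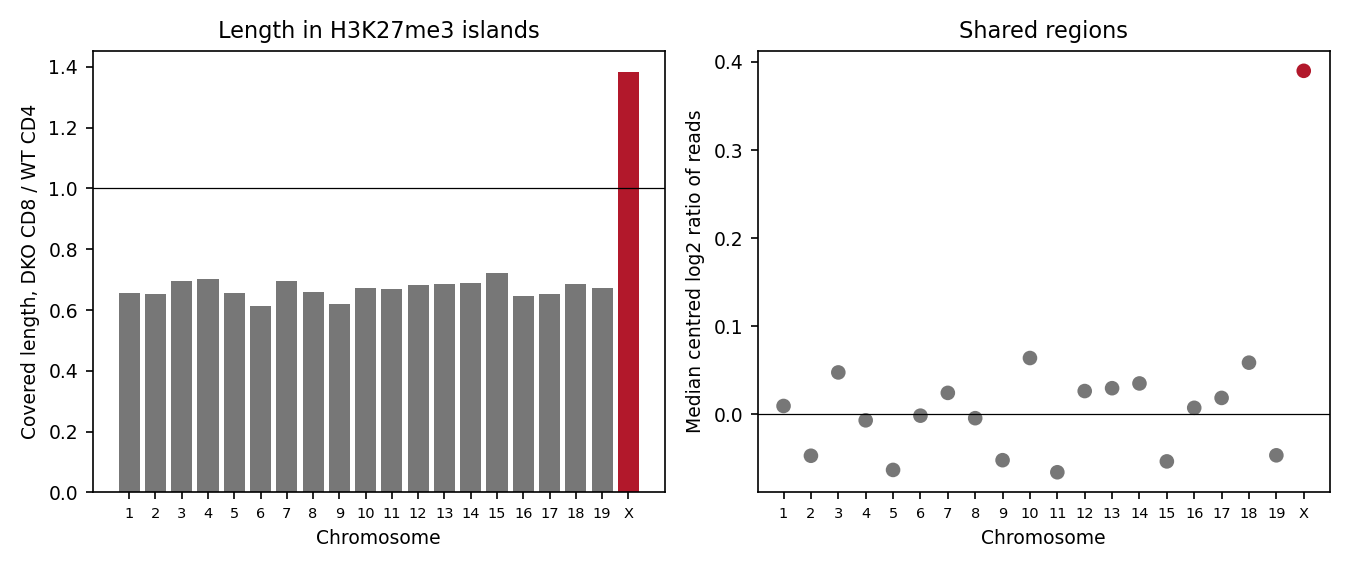
Left, the length covered by H3K27me3 islands in DKO CD8 divided by that in WT CD4, per chromosome (x axis); right, the median centred log2 ratio of reads at shared regions. The 19 autosomes (grey) lie between 0.612 and 0.721 on the left and between -0.07 and 0.06 on the right, and chromosome X (red) lies at 1.38 and 0.39.

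Marks of active chromatin were then read at the H3K27me3 regions. H3K4me3 is typical of promoters, and H3K27ac, which occupies the residue that H3K27me3 modifies, and H3K9ac are typical of active promoters and enhancers. Among shared regions, 3444 overlapped an H3K4me3 island of WT CD4, 1547 one of DKO CD8 and 6.99% (6.55 to 7.45) one of each. The H3K9ac shares differed more, at 25.2% for WT CD4 and 2.93% for DKO CD8. The H3K4me3 and H3K9ac lists of these groups differ in size, so shares are compared between classes of regions and not between groups.

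Shared regions that were higher in DKO CD8 overlapped active marks more often than those that were lower. WT CD4 H3K27ac islands overlapped 36.6% (32.3 to 41.1) of the 483 higher regions, 20.4% (19.7 to 21.2) of those within 2-fold and 11.7% (9.82 to 13.7) of the 1098 lower ones. DKO CD8 H3K27ac islands gave 32.3%, 22.5% and 15.6%. The order was the same for regions of 5 to 20 kb, a limit added after the values had been seen, with 40.8%, 22.2% and 12.1% for WT CD4. Places in islands of 10 or more of the 12 histone libraries made up 31 of the higher and 11 of the lower regions, and their part in these shares was not tested. Most of the H3K27ac at the higher regions was common to both groups: 26.7% had an island of each, 9.94% (7.42 to 13.0) of WT CD4 only and 5.59% (3.72 to 8.03) of DKO CD8 only. At the lower regions these shares were 6.92%, 4.74% and 8.65%, and within 2-fold they were 12.6%, 7.85% and 9.87%. Between classes, the share with H3K27ac of WT CD4 only was larger at the higher than at the lower regions (9.94% against 4.74%, 3.56 to 6.16 for the latter). The share with H3K27ac of DKO CD8 only was smaller (5.59% against 8.65%, 7.06 to 10.5 for the latter). The intervals cover counting error over regions of 1 library a group, so differences between classes were not tested. Median width also differed, at 4800 bp for the higher and 6600 bp for the lower regions. The H3K27ac values are shares of all regions in a class. No H3K27ac island of either group lay at 57.8% of the higher and 79.7% of the lower regions. Where such an island was present, 129 higher regions had both groups, 48 WT CD4 only and 27 DKO CD8 only. At the lower regions the counts were 76, 52 and 95. DKO CD8 only was thus the least frequent kind at the higher and the most frequent at the lower regions.

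In overlap with active marks, regions of a single library followed the same order as the higher and lower regions. Where WT CD4 alone had an H3K27me3 island, H3K4me3 islands of all 3 groups were present at 90 regions (0.466%, 0.375 to 0.573). Where DKO CD8 alone had one, they were present at 329 (3.77%, 3.38 to 4.19). This was near the share at shared regions, where 550 had them (4.3%, 3.97 to 4.68). The 329 regions of DKO CD8 alone were narrow, with a median of 1600 bp and 35 H3K27me3 reads. Places that overlapped islands of 10 or more of the 12 histone libraries numbered 331 among shared regions (2.60%), 12 in WT CD4 alone (0.0622%) and 193 in DKO CD8 alone (2.21%). The 12 include both H3K27me3 libraries that define these classes, so shared regions reach 10 more easily than regions of a single library. For the 193, the median was 1400 bp and 33 reads. Most regions of a single library lay away from the active marks: no H3K4me3 island of either group was found at 88.4% of those in WT CD4 and 81.2% of those in DKO CD8, and no H3K27ac island of either at 91.7% and 86.0%.

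**Figure D5:**
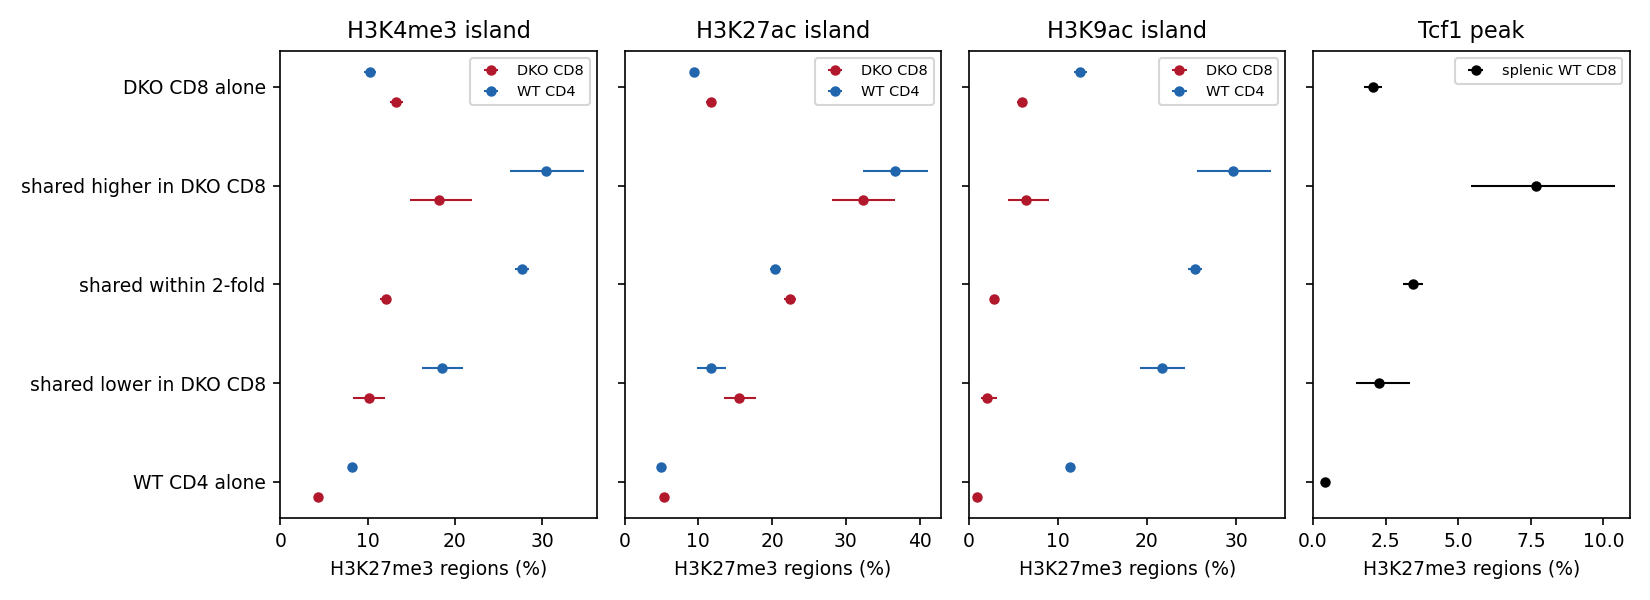
Share of H3K27me3 regions (x axis, percent) that overlap an island of H3K4me3, H3K27ac or H3K9ac of DKO CD8 (red) or WT CD4 (blue), or a Tcf1 peak of splenic CD8 cells (black), in 5 classes of regions (y axis); bars are 95% Clopper-Pearson intervals. H3K27ac of WT CD4 overlaps 36.6% of regions higher in DKO CD8 and 11.7% of those lower, and Tcf1 peaks 7.66% and 2.28%.

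Binding of Tcf1, one of the factors missing in the deficient cells, is given in the series for wild-type splenic CD8 T cells as 7807 peaks. DKO CD8 H3K27me3 islands held 602 of these peaks (7.71%, 7.13 to 8.33) and WT CD4 islands 447 (5.73%, 5.22 to 6.26), although WT CD4 islands covered more sequence. Of the length between the first and last histone island of each chromosome, DKO CD8 islands covered 3.73% and WT CD4 islands 5.51%. The WT CD4 share of peaks was thus near its share of length, and the DKO CD8 share was above it. Both had an island at 303 peaks, DKO CD8 alone at 299 and WT CD4 alone at 144. By class, a peak lay within 7.66% (5.45 to 10.4) of shared regions higher in DKO CD8, 3.43% (3.10 to 3.78) of those within 2-fold and 2.28% (1.48 to 3.34) of those lower. In regions of a single library the shares were 2.05% (1.76 to 2.37) for DKO CD8 and 0.409% (0.324 to 0.510) for WT CD4. Of the 445 shared regions with a peak, 37 (8.31%) belonged to the higher regions and 25 (5.62%) to the lower ones, against 3.79% and 8.61% of all shared regions. The 445 were wide, with a median of 9800 bp, and their median log2 ratio was 0.19. The parts of region width and of H3K27ac in the shares with a Tcf1 peak were not tested, apart from regions of 5 to 20 kb, where they were 8.77%, 3.87% and 2.77%.

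WT CD8 islands were most frequent where DKO CD8 and WT CD4 were similar. They overlapped 60.8% of shared regions within 2-fold, 36.2% (31.9 to 40.7) of those higher in DKO CD8 and 44.5% (41.6 to 47.5) of those lower. Regions of DKO CD8 alone had a WT CD8 island in 16.7% (15.9 to 17.5) of cases, and regions of WT CD4 alone in 13.5% (13.1 to 14.0). Of all shared regions, 58.5% had one. Regions of a single library were narrow and weak, and their shares were larger among wider regions. At 5 to 20 kb they were 30.5% for DKO CD8 alone and 29.3% for WT CD4 alone, against 72.1% of shared regions. The low shares do not show that the mark was particular to DKO CD8 or to WT CD4. At higher regions with a WT CD8 island, its density was 15.9 reads per kb, against 25 in DKO CD8 and 24.8 in WT CD4. At lower regions it was 15, against 21.1 and 22.5. These densities were not scaled to each other, and the WT CD8 library was the least dense of the 3.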

How the data were processed

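ChIP-seq of mature mouse thymocytes gave 1 H3K27me3 library each for DKO CD8, WT CD4 and WT CD8, grouped by sample title. Per the labels, histone libraries were sequenced from one end and some of them again with longer reads; which ones is not stated. The authors' deposited lists hold each island's raw read count on a grid of 200 bp, and islands of either list lie at least 800 bp apart. For Tcf1 the deposited list holds peak positions, which were used, and a score, which was not. The submitters' processing notes name the mm9 build, MACS 1.4.2, SICER 1.1, Bowtie2 2.2.5 and FastQC, with no role given. Depth is known only within islands, because library totals are not given here.

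Ratios are of island reads per merged region, as log2 of DKO CD8 over WT CD4 minus the median over shared regions; ratio intervals are conditional on the sum of both counts. WT CD8 reads are of all islands that overlap a region, which may reach beyond it. Reads per kb are per length of a library's own islands. The rule for named regions took 5 per ranking (most reads in 1 library, highest and lowest ratio where the higher library had 100 reads or more, widest), also without places in islands of 10 or more of the 12 histone libraries, and 3 windows of 1 Mb per direction. Rankings of matched islands and of density, and the list of regions of 50 kb or more beyond 2-fold, were added after seeing the values, and the members and lists were chosen with earlier results of these data known. The reference tables have another build than the lists, so genes, planned gene lists and sequences were not used here. Merging and overlap were checked against bedtools 2.31.1. The ratio step was run on simulated read counts with known changes at the shared regions. The simulation had no island calling, so it checks the computation only and not the ratios reported here. Scripts ran in Python 3.11.15 with SciPy 1.17.1, pandas 2.3.3, numpy 2.4.6 and, for plots, matplotlib 3.10.9.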

Additional observations from a re-analysis of the deposited data

How the results depend on the processing

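Of 59 values recomputed under other settings, 34 stayed within 1.5 times (counts) or within the 95% interval (shares). The overlap of covered length, 39.7% as reported, was 39.9% on autosomes, 46.8% at equal covered length, 46.9% with islands above the median reads of their list, 41.2% with islands within 2 kb joined, and 38.1% without places in 10 or more of 12 lists. The share of regions shared was 34.1% at equal covered length, 47.2% with islands above the median and 29.7% with an overlap of at least 50% of the shorter island. At equal covered length the regions of WT CD4 alone numbered 8652. With islands above the median, 8442 regions were shared, 2218 were of DKO CD8 alone and 7222 of WT CD4 alone, and 171 shared regions were higher by 2-fold or more and 432 lower. Higher and lower regions numbered 733 and 803 on total island reads, 166 and 84 on reads per length of own islands, 20 and 0 with matched islands, and 11 and 2 with matched islands centred on their own median. Matching keeps 2720 of the 12747 shared regions. Without places in 10 or more of 12 lists, the share of shared regions with H3K4me3 islands of both groups went from 6.99% to 4.79%, and that with a Tcf1 peak from 3.49% to 2.86%. Regions of 5 to 20 kb and the own centring of matched islands were alternatives added after seeing the data. No paired analysis was possible because each group had 1 library. For the same reason no replicate could be left out. Depth limits the lists at 15 reads per island: a region of 1 library is not shown to lack the mark in the other.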
